A study of Mus musculus with 6 samples.

Results

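The genes described are 37 enzymes, transporters and regulators of glycolysis, lactate handling and glycogen metabolism, taken by gene symbol from the 52459 symbols in the deposited count table. RNA was sequenced from mouse macrophages of the C57BL/6 strain that had been grown from bone marrow with GM-CSF (a growth factor for myeloid cells) in cRPMI medium. On day 7 of culture 3 samples received piceatannol overnight and 3 control samples received vehicle. Piceatannol is a hydroxylated stilbene from plants that inhibits the tyrosine kinase Syk. The sources used here give neither the dose nor the vehicle nor the age and sex of the animals. They also leave unsaid whether replicates came from different animals or dishes, so the p-values reflect only the spread among these 6 samples, which may be technical.

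Glycolysis turns glucose into pyruvate with a net gain of ATP, and its committed step is catalysed by phosphofructokinase, which is driven by the fructose bisphosphate signal made by the PFKFB enzymes. Pyruvate then either becomes lactate, which leaves the cell through monocarboxylate transporters, or enters mitochondria through pyruvate dehydrogenase, which the PDK kinases switch off. Macrophages are known to run glycolysis at a high rate when activated by microbial products or short of oxygen, where the factor HIF1 induces many of these genes, and they can store and mobilise glycogen.

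The libraries held between 33276569 and 49283203 counts with piceatannol and between 43586270 and 58697084 counts in control. Summed markers of macrophages lay between 13197 and 14672 CPM (counts scaled to a common library size) with piceatannol and between 18595 and 22569 CPM in control, with 2 of the 8 markers higher, 6 lower and none at 0. Most of that sum came from 1 marker in every library, so it says little about the other macrophage markers. Dendritic cell markers, of which 5 of 8 were lower and 1 higher, summed to between 815 and 1013 CPM with piceatannol and to between 1539 and 1666 CPM in control. Fibroblast or stromal markers, 4 of 5 of them lower, summed to between 480 and 522 CPM with piceatannol and to between 1912 and 2153 CPM in control. Neutrophil markers, all 5 tested lower, summed to between 1.85 and 2.57 CPM with piceatannol and to between 12.4 and 21.7 CPM in control. T cell markers, both of the 2 tested lower, summed to between 0.142 and 0.307 CPM with piceatannol and to between 1.29 and 2.35 CPM in control. B cell markers, all 5 lower, summed to between 0.242 and 0.926 CPM with piceatannol and to between 2.21 and 3.82 CPM in control. Erythroid markers, both of the 2 tested higher, summed to between 1.48 and 1.92 CPM with piceatannol and to between 0.365 and 0.457 CPM in control. Progenitor markers, 2 of 4 higher and 2 lower, summed to between 77.7 and 93.7 CPM with piceatannol and to between 94.1 and 111 CPM in control. Mitochondrially encoded genes took 2.15% ± 0.431 of the counts with piceatannol and 0.82% ± 0.0447 in control (SD, n = 3 each). The part of these marker and mitochondrial differences in the results for glycolytic genes was not tested. In such bulk samples fewer cells of a type and less RNA per cell cannot be told apart.

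All 37 genes passed the filter on low counts, and 26 of them were higher and 6 lower with piceatannol at an edgeR adjusted p under 0.05. Over all 15380 genes tested, 38.8% were higher and 38.3% lower by the same rule, so that 77% of genes were called in total. A call by itself therefore says little about any one of these genes, and the direction and size are described instead. The median log2 fold change (piceatannol over control) was 0.92 over the 37 genes and 0.01 over all genes tested. The 37 genes were chosen with earlier results of these data known, so their contrast with all genes is a description and no independent support. Of the 37 genes, 18 were at least 2-fold higher and 3 at least 2-fold lower, where the same rule held for 17.5% and 16.6% of all genes. The piceatannol libraries lay wholly above the control libraries for 26 genes and wholly below them for 7, and overlapped for 4, while 79% of all genes showed no overlap in either direction. Together the 37 genes took 1.31%, 1.39% and 1.37% of the counts in the piceatannol libraries, against 0.663%, 0.691% and 0.694% in the control libraries. The 6 genes that fell were Slc2a6, Pfkm, Aldoc, Eno3, Pdk3 and Pygl, and the 5 that did not pass the test were Pfkfb2, Pfkfb4, Ldhb, Pdk2 and Pgm1.

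**Figure D1:**
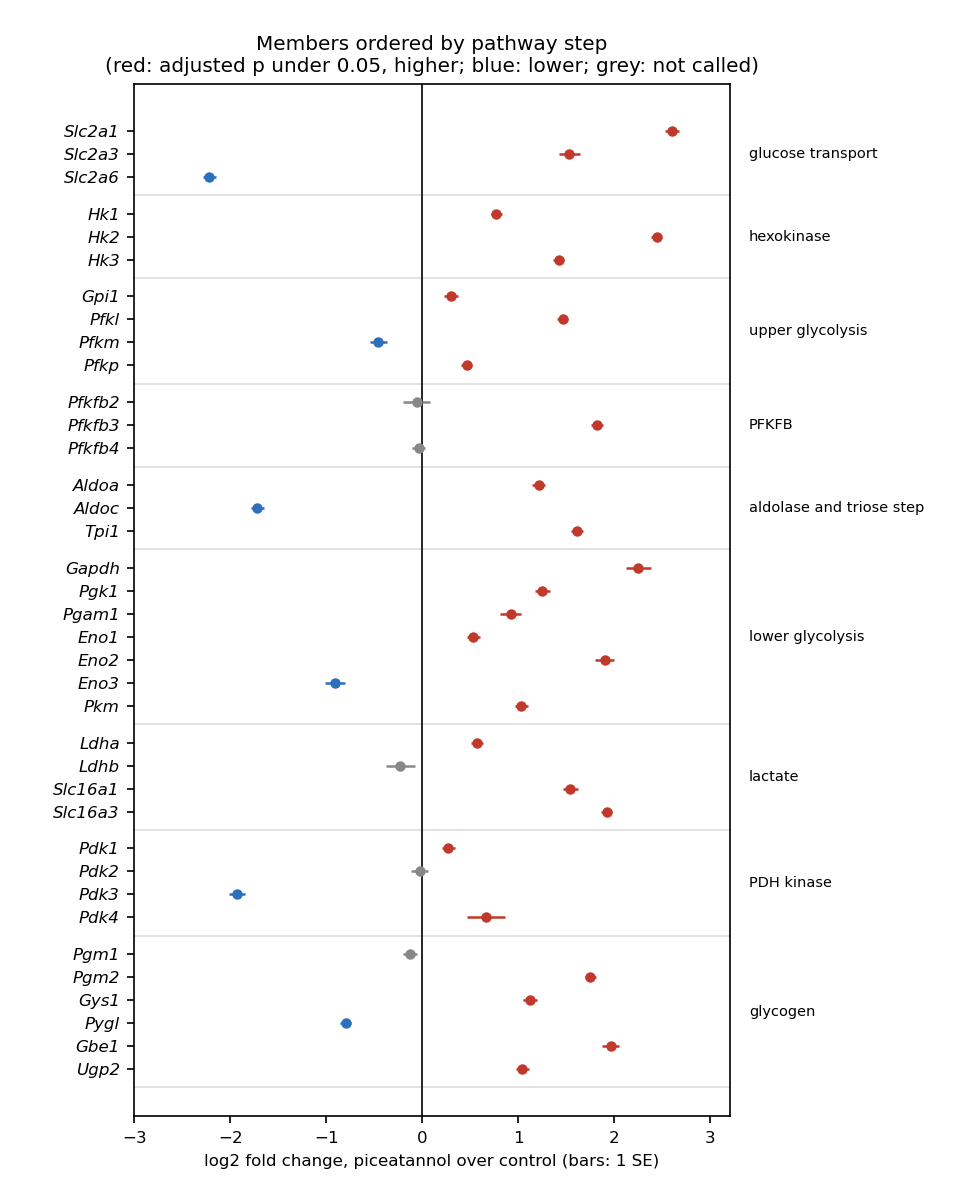
Log2 fold change of piceatannol over control (x axis, bars 1 SE) for the 37 genes in pathway order from glucose transport at the top to glycogen at the bottom, with 26 red points (higher), 6 blue (lower) and 5 grey (not called). The points reach 2.60 for Slc2a1 at the high end and -2.22 for Slc2a6 at the low end, and every step except the hexokinases holds at least 1 gene that did not rise.

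Promoters of 5 genes with among the largest changes are shown because they hold, or lack, the short sequences ACGTG and, as its variant, GCGTG, which are the core of the site bound by HIF. Each is 300 bases of the gene's own strand, from 250 bases before to 50 bases after the start site, from RefSeq on GRCm38.p6. Capitals mark either motif or its reverse complement. The first 3 genes rose and the last 2 fell. They lie at chr4:119108495-119108794 on the plus strand (Slc2a1), chr6:82774405-82774704 on the minus strand (Hk2), chr16:70313699-70313998 on the plus strand (Gbe1), chr2:27027949-27028248 on the minus strand (Slc2a6) and chrX:93832101-93832400 on the minus strand (Pdk3).
Slc2a1: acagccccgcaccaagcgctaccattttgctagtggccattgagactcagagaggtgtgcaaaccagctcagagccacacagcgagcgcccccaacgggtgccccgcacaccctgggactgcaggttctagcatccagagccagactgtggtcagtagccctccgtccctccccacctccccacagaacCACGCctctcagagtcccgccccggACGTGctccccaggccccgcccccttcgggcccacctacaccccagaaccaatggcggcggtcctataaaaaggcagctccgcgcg
Hk2: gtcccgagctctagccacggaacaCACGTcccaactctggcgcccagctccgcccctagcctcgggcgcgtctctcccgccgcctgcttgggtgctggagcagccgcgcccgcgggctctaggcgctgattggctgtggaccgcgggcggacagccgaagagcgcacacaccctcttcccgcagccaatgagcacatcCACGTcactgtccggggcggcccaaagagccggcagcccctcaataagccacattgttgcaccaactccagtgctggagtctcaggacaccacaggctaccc
Gbe1: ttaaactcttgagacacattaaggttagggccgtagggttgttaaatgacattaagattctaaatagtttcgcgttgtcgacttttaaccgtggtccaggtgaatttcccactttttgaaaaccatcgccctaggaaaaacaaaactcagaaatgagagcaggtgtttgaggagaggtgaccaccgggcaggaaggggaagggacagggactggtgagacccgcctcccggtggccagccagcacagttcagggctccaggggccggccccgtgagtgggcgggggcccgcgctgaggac
Slc2a6: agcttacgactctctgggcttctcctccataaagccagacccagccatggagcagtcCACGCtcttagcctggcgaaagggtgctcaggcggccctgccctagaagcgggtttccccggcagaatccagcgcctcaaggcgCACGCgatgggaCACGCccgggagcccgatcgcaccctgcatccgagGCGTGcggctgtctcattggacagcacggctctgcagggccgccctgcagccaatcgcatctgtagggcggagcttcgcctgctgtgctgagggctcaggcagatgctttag
Pdk3: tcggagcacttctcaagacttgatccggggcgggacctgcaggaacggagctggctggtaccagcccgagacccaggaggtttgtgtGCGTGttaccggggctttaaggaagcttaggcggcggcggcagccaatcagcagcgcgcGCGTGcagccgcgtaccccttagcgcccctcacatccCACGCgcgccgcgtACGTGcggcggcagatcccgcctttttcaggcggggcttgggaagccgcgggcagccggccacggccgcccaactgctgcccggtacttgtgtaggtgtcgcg

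The Slc2a1 promoter holds 1 match to each motif and the Hk2 promoter 2 matches to ACGTG, while Gbe1 has none in this window. The promoters of Slc2a6 and Pdk3, which fell, hold 4 matches each, all to GCGTG for Slc2a6, and 1 to ACGTG and 3 to GCGTG for Pdk3. RefSeq promoters were found for 36 of the 37 genes, 53 promoters in all. On either strand, ACGTG lay in 49.1% of these promoters and GCGTG in 52.8%, against 24.8% and 48.5% of the promoters of genes that passed the count filter and 19.6% and 32.4% of all 32851 mouse promoters in the table. The share with GCGTG was thus near that of the genes that passed the filter. At least 1 of the motifs lay in 77.4% of the promoters of these genes, in 59.9% of the promoters of genes that passed the count filter and in 43.8% of all promoters. Those sets differed in base composition, with a median GC content of 61.0% for the 37 genes, 60.3% for the tested genes and 52.7% for all. Counted by gene, a match to either motif was present for 20 of the 25 risen genes with a promoter, for 6 of 6 fallen genes and for 5 of 5 genes not called. For ACGTG these counts were 15 of 25 risen, 4 of 6 fallen and 3 of 5 not called. No share by gene was computed for the tested genes, and a gene with several promoters has more chances of a match. Overlapping promoters of a gene, as for Aldoa and Eno1, also count the same site again in the shares by promoter. ACGTG can lie inside the E-box CACGTG, which 11.3% of these promoters and 7.15% of all promoters contained. A match describes the letters only and says nothing about binding in these cells.

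Glucose transporters moved in opposite directions, with Slc2a1 far higher and Slc2a6 far lower. Slc2a1 encodes GLUT1, the main glucose carrier of many cell types (chromosome 4, 119108711 to 119137983, plus strand, positions here and below from GENCODE M21 on GRCm38). Slc2a1 had 351, 374 and 329 FPKM in the piceatannol libraries, against 58.2, 59.3 and 59.3 FPKM in the control libraries. The lowest piceatannol library was thus several times above the highest control library, and the log2 fold change was 2.60 ± 0.07 (SE, n = 3 each; edgeR adjusted p = 1.09e-17). Slc2a3 encodes GLUT3, a carrier of high affinity. Slc2a3 had 2.69, 2.15 and 2.58 FPKM in the piceatannol libraries, against 0.93, 0.83 and 0.85 FPKM in the control libraries. It rose by a log2 fold change of 1.53 ± 0.11 (SE, n = 3 each; edgeR adjusted p = 8.16e-11), at a level far under that of Slc2a1. Slc2a6 encodes GLUT6, a carrier of the lysosomal membrane that is induced in inflammatory macrophages (chromosome 2, 27021363 to 27027998, minus strand). Slc2a6 had 8.32, 8.34 and 9.16 FPKM in the piceatannol libraries, against 37.6, 41 and 43.4 FPKM in the control libraries. All piceatannol libraries lay below all control libraries, and the log2 fold change was -2.22 ± 0.07 (SE, n = 3 each; edgeR adjusted p = 2.57e-16). As FPKM (fragments scaled by gene length and library size, as deposited), Slc2a1 made up 96.9% ± 0.359 of the summed level of the 3 carriers with piceatannol and 58.7% ± 1.45 in control, and Slc2a6 made up 2.38% ± 0.27 with piceatannol and 40.4% ± 1.52 in control (SD, n = 3 each). The summed level of the 3 carriers was 3.61-fold higher with piceatannol.

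Hexokinases, which trap glucose in the cell as glucose phosphate, all rose, and Hk2 rose most. Hk2 encodes the inducible hexokinase that can bind to the outer mitochondrial membrane (chromosome 6, 82725025 to 82774454, minus strand). Hk2 had 77.1, 81.5 and 73.1 FPKM in the piceatannol libraries, against 14.3, 14.7 and 14.3 FPKM in the control libraries. The groups were far apart, with a log2 fold change of 2.44 ± 0.06 (SE, n = 3 each; edgeR adjusted p = 7.69e-18). Hk3 encodes a hexokinase abundant in myeloid cells. Hk3 had 64.9, 69 and 70.4 FPKM in the piceatannol libraries, against 25.3, 24.6 and 27.8 FPKM in the control libraries. It rose with a log2 fold change of 1.42 ± 0.06 (SE, n = 3 each; edgeR adjusted p = 4.4e-14). Hk1, the widely expressed hexokinase, changed least. Hk1 had 34.3, 37.6 and 34.9 FPKM in the piceatannol libraries, against 21, 20.9 and 21.7 FPKM in the control libraries. The log2 fold change of Hk1 was 0.77 ± 0.06 (SE, n = 3 each; edgeR adjusted p = 2.29e-10). By mean FPKM Hk2 was the highest of the 3 hexokinases with piceatannol and the lowest in control, where Hk3 was the highest. By mean CPM Hk1 was the highest in control, at 181 CPM, against 95.3 CPM for Hk3. The lengths behind the FPKM values were 8532 bases for Hk1 and 3682 for Hk3, against longest coding transcripts of 4278 and 3219. The share of Hk2 was 42.7% ± 1.49 with piceatannol and 23.5% ± 0.978 in control (SD, n = 3 each). The levels of Hk2 and Hk3 lay close together with piceatannol, although Hk2 was above Hk3 in each of those 3 libraries.

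At the phosphofructokinase step the liver-type subunit rose most and the muscle-type subunit fell. Pfkl had 48.7, 52.7 and 53.3 FPKM in the piceatannol libraries, against 18.3, 18.5 and 20.1 FPKM in the control libraries. Pfkl, the liver-type subunit, thus lay far apart in the groups, with a log2 fold change of 1.46 ± 0.06 (SE, n = 3 each; edgeR adjusted p = 2.14e-14). Pfkp, the platelet-type subunit, rose less. Pfkp had 43.4, 46.1 and 43.9 FPKM in the piceatannol libraries, against 33.6, 32.7 and 32.1 FPKM in the control libraries. Its log2 fold change was 0.46 ± 0.06 (SE, n = 3 each; edgeR adjusted p = 5.84e-07). Pfkm, the muscle-type subunit, was low in both groups. Pfkm had 4.53, 4.35 and 4.25 FPKM in the piceatannol libraries, against 5.94, 6.06 and 6.37 FPKM in the control libraries. Without overlap between groups it fell, with a log2 fold change of -0.46 ± 0.09 (SE, n = 3 each; edgeR adjusted p = 7.42e-05). By FPKM Pfkp was the highest of the 3 subunits in control, at 56.6% ± 1.71 of their sum (SD, n = 3 each). With piceatannol it held 44.3% ± 0.878, and Pfkl was the highest at 51.4% ± 1.08 (SD, n = 3 each). This order depends on the lengths behind the FPKM values, 13401 bases for Pfkp and 6675 for Pfkl, where their longest coding transcripts have 4145 and 3730. By mean CPM Pfkp was the highest in both groups, with 605 CPM against 350 CPM for Pfkl with piceatannol. The exons of Pfkm and Pfkp share 18 bases with Senp1 and 748 bases with Pitrm1 on the opposite strand. Pfkm also shares 341 bases on its own strand with Gm26513, which had a mean of 0.315 CPM with piceatannol and 0.2 CPM in control. Gpi1, glucose phosphate isomerase, is the step before. Gpi1 had 92.5, 104 and 102 FPKM in the piceatannol libraries, against 77.4, 85.8 and 83 FPKM in the control libraries. This is a small rise, with a log2 fold change of 0.30 ± 0.07 (SE, n = 3 each; edgeR adjusted p = 0.000329).

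Among the PFKFB enzymes, which make and remove the activator of phosphofructokinase, only Pfkfb3 passed the test. Pfkfb3 encodes the inducible form, in which the kinase activity far exceeds the phosphatase activity (chromosome 2, 11471433 to 11554077, minus strand). Pfkfb3 had 41.6, 45.1 and 41.8 FPKM in the piceatannol libraries, against 11.9, 12.8 and 12.2 FPKM in the control libraries. All piceatannol libraries were more than 3 times as high as any control library, and the log2 fold change was 1.82 ± 0.06 (SE, n = 3 each; edgeR adjusted p = 3.88e-16). Pfkfb4 had 7.93, 8.13 and 7.67 FPKM in the piceatannol libraries, against 8.15, 8.61 and 7.98 FPKM in the control libraries. Pfkfb4, a testis-enriched form that hypoxia can induce, overlapped between groups, at -0.04 ± 0.07 (SE, n = 3 each; edgeR adjusted p = 0.617). Pfkfb2, the form best known from heart, lay between 0.70 and 0.78 FPKM with piceatannol and between 0.68 and 0.87 FPKM in control, at -0.06 ± 0.14 (SE, n = 3 each; edgeR adjusted p = 0.706). The share of Pfkfb3 in the summed level of the 3 was 83.2% ± 0.462 with piceatannol and 57.6% ± 0.665 in control (SD, n = 3 each).

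The isozyme levels in each library are plotted for 6 steps of the pathway.

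**Figure D2:**
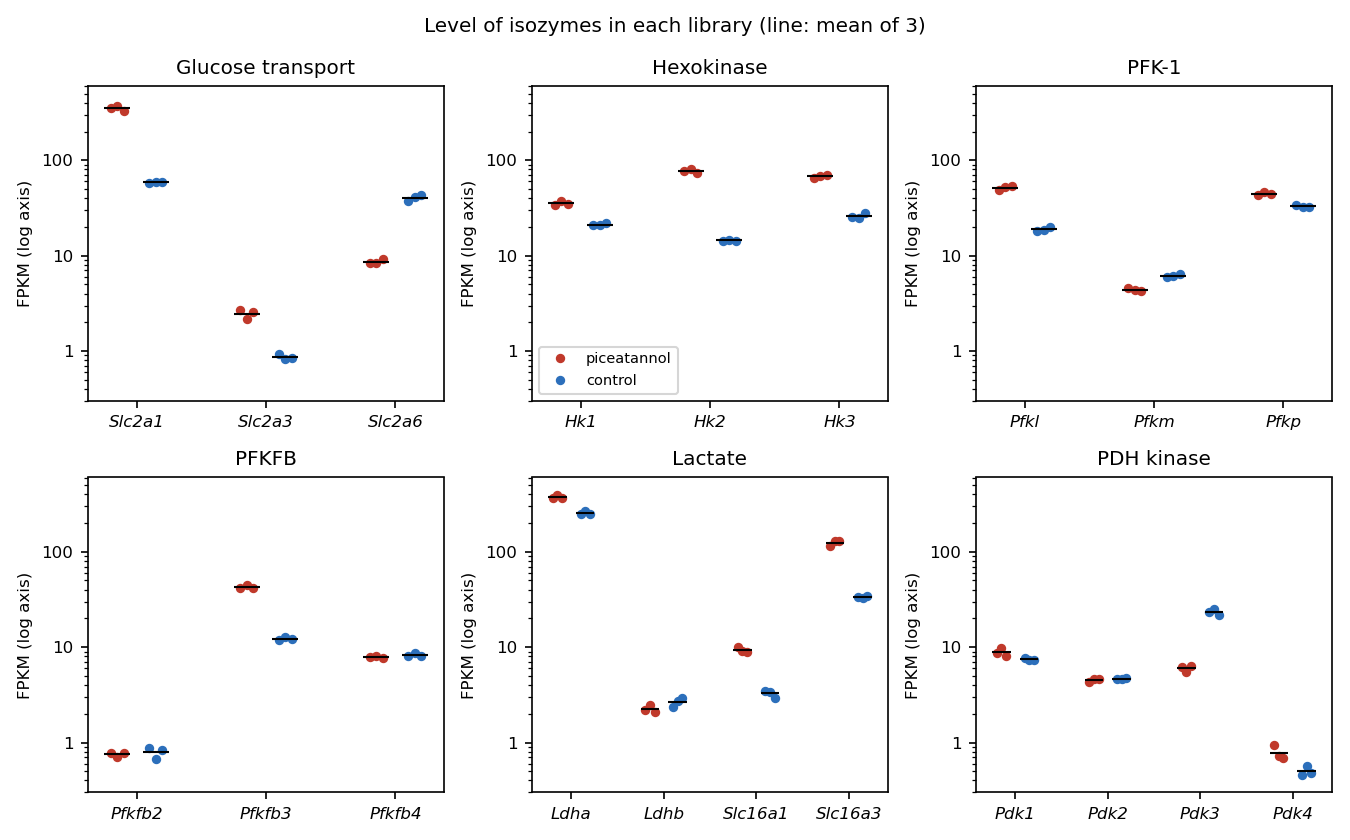
FPKM of each library (y axis, log scale) for the isozymes of 6 steps, with the 3 piceatannol libraries in red left of the 3 control libraries in blue and a line at the mean of 3. Slc2a1, Hk2, Pfkfb3 and Slc16a3 lie higher with piceatannol, Slc2a6 and Pdk3 lie lower, and Pfkfb4 and Pdk2 are close to level.

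Splitting of the 6-carbon sugar showed the same kind of divergence, with Aldoa and Tpi1 higher and Aldoc lower. Aldoa encodes the widely expressed aldolase and had the highest FPKM of the 37 genes in both groups. Aldoa had 722, 763 and 787 FPKM in the piceatannol libraries, against 306, 349 and 343 FPKM in the control libraries. Piceatannol libraries were at more than 2 times every control library, and the log2 fold change was 1.21 ± 0.07 (SE, n = 3 each; edgeR adjusted p = 5.72e-12). Aldoc, the aldolase best known from brain, was a minor form (chromosome 11, 78322968 to 78327781, plus strand). Aldoc had 7.72, 7.39 and 8.75 FPKM in the piceatannol libraries, against 24.9, 27.5 and 27.5 FPKM in the control libraries. It fell without overlap, with a log2 fold change of -1.72 ± 0.07 (SE, n = 3 each; edgeR adjusted p = 2.77e-14). Tpi1 encodes triose phosphate isomerase, which interconverts the triose products of aldolase. Tpi1 had 327, 339.6 and 349 FPKM in the piceatannol libraries, against 107, 115 and 117 FPKM in the control libraries. It rose with a log2 fold change of 1.61 ± 0.06 (SE, n = 3 each; edgeR adjusted p = 7.25e-15).

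In the steps from glyceraldehyde phosphate to pyruvate 6 of 7 genes rose and only Eno3 fell. Pkm encodes pyruvate kinase of muscle and most other tissues, which makes pyruvate and ATP, and gene counts do not separate its M1 and M2 splice forms. Pkm had 389, 402 and 426 FPKM in the piceatannol libraries, against 195, 199 and 210.4 FPKM in the control libraries. It rose with a log2 fold change of 1.03 ± 0.07 (SE, n = 3 each; edgeR adjusted p = 2.36e-11). Pgk1, phosphoglycerate kinase, makes ATP earlier in this segment. Pgk1 had 25.3, 27.5 and 23.6 FPKM in the piceatannol libraries, against 11, 11.6 and 10.1 FPKM in the control libraries. The log2 fold change of Pgk1 was 1.25 ± 0.08 (SE, n = 3 each; edgeR adjusted p = 6.07e-12). Pgam1, phosphoglycerate mutase, moves the phosphate for the enolase step. Pgam1 had 11.2, 11.9 and 10.2 FPKM in the piceatannol libraries, against 7.17, 5.13 and 5.55 FPKM in the control libraries. The control libraries spread widely, but the groups did not overlap, and Pgam1 rose with 0.92 ± 0.11 (SE, n = 3 each; edgeR adjusted p = 6.12e-07).

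Enolase genes split by form. Eno1, the widely expressed enolase, was dominant. Eno1 had 69.4, 75.4 and 76.9 FPKM in the piceatannol libraries, against 47.4, 54.6 and 54.1 FPKM in the control libraries. Its log2 fold change was 0.53 ± 0.07 (SE, n = 3 each; edgeR adjusted p = 4.06e-07). Eno2 is the neuron-enriched form. Eno2 had 4.22, 3.89 and 4.4 FPKM in the piceatannol libraries, against 1.08, 1.17 and 1.15 FPKM in the control libraries. From a low level it rose with a log2 fold change of 1.90 ± 0.10 (SE, n = 3 each; edgeR adjusted p = 7.08e-13). Eno3 is the muscle-enriched form. Eno3 had 3.98, 4.63 and 4.43 FPKM in the piceatannol libraries, against 8.06, 8.43 and 8.33 FPKM in the control libraries. It fell with a log2 fold change of -0.91 ± 0.10 (SE, n = 3 each; edgeR adjusted p = 8.37e-08). By FPKM Eno2 and Eno3 stood at similar levels with piceatannol, while Eno3 was several times above Eno2 in control. These levels depend on the lengths behind the FPKM values, 4705 bases for Eno2 and 1739 for Eno3. By mean CPM Eno2 was above Eno3 with piceatannol, at 19.9 and 7.68 CPM, and below it in control, at 5.33 and 14.4 CPM.

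Gapdh, glyceraldehyde phosphate dehydrogenase, needs separate treatment because its counts are uncertain (chromosome 6, 125161715 to 125166467, minus strand). Gapdh had 14.2, 16.1 and 13.9 FPKM in the piceatannol libraries, against 2.42, 3.35 and 3.64 FPKM in the control libraries. The row rose with a log2 fold change of 2.25 ± 0.13 (SE, n = 3 each; edgeR adjusted p = 6.78e-08), but 77 other annotated genes, 76 of them in the table, match its transcript at 95% identity or more over at least 200 bases, covering 88% of it. The table gave the Gapdh row 2524, 2216 and 2857 counts in the piceatannol libraries, against 528, 605 and 891 counts in the control libraries. The copies together held 2139, 2147 and 2666 counts in the piceatannol libraries, against 1362, 1418 and 1678 counts in the control libraries. With the copies added to the row (an alternative chosen after the data were seen) the log2 fold change was 1.52 and the edgeR adjusted p 6.59e-09. Near-identical copies also exist for Gpi1, Tpi1, Pgk1, Pgam1, Eno1, Pkm, Ldha and Ldhb, whose log2 fold changes with the copies added were 0.31, 1.62, 1.26, 0.93, 0.54, 1.05, 0.59 and -0.20. The sources used here do not say how reads matching a copy equally well were counted, so the levels of these 9 genes are uncertain. Adding the copies sums only reads that were already counted, so it cannot show the effect of any reads left out.

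Of the 4 lactate genes 3 rose, the transporters by larger values than Ldha, and Ldhb was not called. Ldha encodes the subunit of lactate dehydrogenase that favours making lactate from pyruvate. Ldha had 369, 391 and 365 FPKM in the piceatannol libraries, against 249.8, 267 and 250.2 FPKM in the control libraries. It rose by less than most of the other risen genes, with a log2 fold change of 0.57 ± 0.06 (SE, n = 3 each; edgeR adjusted p = 7.76e-08). Ldhb encodes the subunit that favours the reverse reaction. Ldhb had 2.17, 2.48 and 2.1 FPKM in the piceatannol libraries, against 2.36, 2.71 and 2.94 FPKM in the control libraries. The groups overlapped, at -0.23 ± 0.15 (SE, n = 3 each; edgeR adjusted p = 0.177). Slc16a3 encodes MCT4, the lactate exporter of highly glycolytic cells (chromosome 11, 120948480 to 120960868, plus strand). Slc16a3 had 116, 128 and 129 FPKM in the piceatannol libraries, against 33.3, 33.1 and 34 FPKM in the control libraries. Every piceatannol library was above 3 times any control library, with a log2 fold change of 1.92 ± 0.06 (SE, n = 3 each; edgeR adjusted p = 3.73e-16). Slc16a1 encodes MCT1, which carries lactate in both directions. Slc16a1 had 9.97, 9.18 and 8.86 FPKM in the piceatannol libraries, against 3.5, 3.4 and 2.9 FPKM in the control libraries. It rose too, at a level more than 10-fold lower than that of Slc16a3 by mean FPKM, with a log2 fold change of 1.54 ± 0.08 (SE, n = 3 each; edgeR adjusted p = 1.26e-12). Summed FPKM was 3.64-fold higher with piceatannol for the pair of transporters and 1.46-fold higher for the pair of dehydrogenase subunits.

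The kinases that inactivate pyruvate dehydrogenase were lower as a sum, and among them Pdk3, the form with the highest level in control, fell. Pdk3 lies on the X chromosome (positions 93764607 to 93832201, minus strand). Pdk3 had 6.25, 5.49 and 6.38 FPKM in the piceatannol libraries, against 23.4, 25.1 and 21.8 FPKM in the control libraries. The groups were well apart, with a log2 fold change of -1.93 ± 0.08 (SE, n = 3 each; edgeR adjusted p = 1.3e-14). Pdk1, the form best known as a HIF target, rose slightly. Pdk1 had 8.65, 9.79 and 8.07 FPKM in the piceatannol libraries, against 7.73, 7.34 and 7.26 FPKM in the control libraries. Its log2 fold change was 0.27 ± 0.07 (SE, n = 3 each; edgeR adjusted p = 0.00186). Pdk4, which fasting induces in muscle and liver, was the lowest of the 4. Pdk4 had 0.94, 0.72 and 0.69 FPKM in the piceatannol libraries, against 0.46, 0.57 and 0.48 FPKM in the control libraries. The log2 fold change was 0.66 ± 0.20 (SE, n = 3 each; edgeR adjusted p = 0.00457). Pdk2, a widely expressed form, lay between 4.28 and 4.60 FPKM with piceatannol and between 4.60 and 4.71 FPKM in control, at -0.03 ± 0.09 (SE, n = 3 each; edgeR adjusted p = 0.739). The summed FPKM of the 4 kinases was 20.1 ± 0.436 with piceatannol and 36.1 ± 1.74 in control (SD, n = 3 each), which is 1.79-fold lower with piceatannol. The size of this fall depends on the lengths behind the FPKM values, 2561 bases for Pdk3 and 7779 for Pdk1. Without division by length the fall was smaller, as the 4 kinases took 0.0102% of the counts with piceatannol and 0.0136% in control (means, n = 3 each). Pdk1 was the highest form with piceatannol at 43.8% ± 3.39 of the sum and held 20.7% ± 1.05 in control, while Pdk3 held 30.0% ± 2.98 with piceatannol and 65.0% ± 1.51 in control.

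Of the 6 glycogen genes 4 of the synthesis route rose, the phosphorylase Pygl fell and Pgm1 was not called. Phosphoglucomutase interconverts the sugar phosphates at the entry to glycogen. The table's row Pgm2 implies an exon length of 2921 bases, which in GENCODE M21 is that of the gene on chromosome 4 (99929414 to 99987294) that M21 calls Pgm1, and the row Pgm1 implies 2590 bases, that of the gene on chromosome 5 (64092950 to 64128351) that M21 calls Pgm2. The symbols are used here as the table gives them, so Pgm2 is the main phosphoglucomutase and Pgm1 a relative that in humans acts mainly on pentose phosphates. Pgm2 had 61.2, 69.3 and 61.8 FPKM in the piceatannol libraries, against 19.8, 19.4 and 18.9 FPKM in the control libraries. Piceatannol libraries were about 3 times as high, with a log2 fold change of 1.75 ± 0.06 (SE, n = 3 each; edgeR adjusted p = 1.66e-15). Pgm1 had 14.6, 15.8 and 15.2 FPKM in the piceatannol libraries, against 17.3, 16.9 and 16.5 FPKM in the control libraries. The groups did not overlap, but Pgm1 missed the threshold, at -0.13 ± 0.07 (SE, n = 3 each; edgeR adjusted p = 0.0755).

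Ugp2 makes UDP-glucose, the activated sugar for glycogen and glycosylation. Ugp2 had 61.4, 53.8 and 49.2 FPKM in the piceatannol libraries, against 28.1, 26.9 and 26.1 FPKM in the control libraries. It rose, with a log2 fold change of 1.04 ± 0.07 (SE, n = 3 each; edgeR adjusted p = 1.04e-10). Gys1, the glycogen synthase of tissues other than liver, adds that glucose to the chain. Gys1 had 29.9, 35.6 and 32.6 FPKM in the piceatannol libraries, against 14.9, 15.8 and 15 FPKM in the control libraries. It rose by 1.12 ± 0.07 (SE, n = 3 each; edgeR adjusted p = 3.64e-12) on the log2 scale, and its exons share 310 bases with Ruvbl2 on the opposite strand. Gbe1 encodes the branching enzyme (chromosome 16, 70313949 to 70569716, plus strand). Gbe1 had 10.2, 10.6 and 8.25 FPKM in the piceatannol libraries, against 2.62, 2.42 and 2.5 FPKM in the control libraries. It had the largest rise among the 6 glycogen genes, with a log2 fold change of 1.96 ± 0.09 (SE, n = 3 each; edgeR adjusted p = 1.09e-13). Pygl encodes the liver-type glycogen phosphorylase, which releases glucose phosphate from glycogen (chromosome 12, 70190811 to 70231488, minus strand). Pygl had 27.4, 31.5 and 27.9 FPKM in the piceatannol libraries, against 50.6, 49.8 and 52.8 FPKM in the control libraries. It fell in all 3 piceatannol libraries relative to every control library, with a log2 fold change of -0.80 ± 0.06 (SE, n = 3 each; edgeR adjusted p = 4.25e-10).

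Of 25 other glycogen genes in a list chosen beside these, 21 were tested, of which 9 rose, 8 fell and 4 were not called, with a median log2 fold change of 0.04. The muscle-type phosphorylase Pygm was among those that rose. Pygm had 3.76, 3.83 and 4.11 FPKM in the piceatannol libraries, against 0.49, 0.5 and 0.43 FPKM in the control libraries. With piceatannol it stayed below Pygl in FPKM, and its log2 fold change was 3.07 ± 0.13 (SE, n = 3 each; edgeR adjusted p = 3.41e-14). The glycogen-targeting subunits of protein phosphatase 1, which bring the phosphatase to glycogen synthase and phosphorylase, diverged. Ppp1r3b had 14.3, 15.3 and 14 FPKM in the piceatannol libraries, against 3.75, 3.71 and 3.54 FPKM in the control libraries. Ppp1r3d had 1.31, 1.48 and 1.35 FPKM in the piceatannol libraries, against 8.13, 8.2 and 7.44 FPKM in the control libraries. Ppp1r3b thus rose, with a log2 fold change of 2.01 ± 0.07 (SE, n = 3 each; edgeR adjusted p = 3.59e-16), and Ppp1r3d fell, with -2.50 ± 0.10 (SE, n = 3 each; edgeR adjusted p = 6.14e-15). Epm2a, the laforin phosphatase that removes phosphate from glycogen, rose by 2.36 ± 0.12 (SE, n = 3 each; edgeR adjusted p = 3.52e-13) on the log2 scale. Pgm2l1, which makes glucose bisphosphate, fell, with a log2 fold change of -1.42 ± 0.09 (SE, n = 3 each; edgeR adjusted p = 1.76e-11). Phkb, a subunit of phosphorylase kinase, fell as well, with -0.78 ± 0.08 (SE, n = 3 each; edgeR adjusted p = 2.13e-08).

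**Figure D3:**
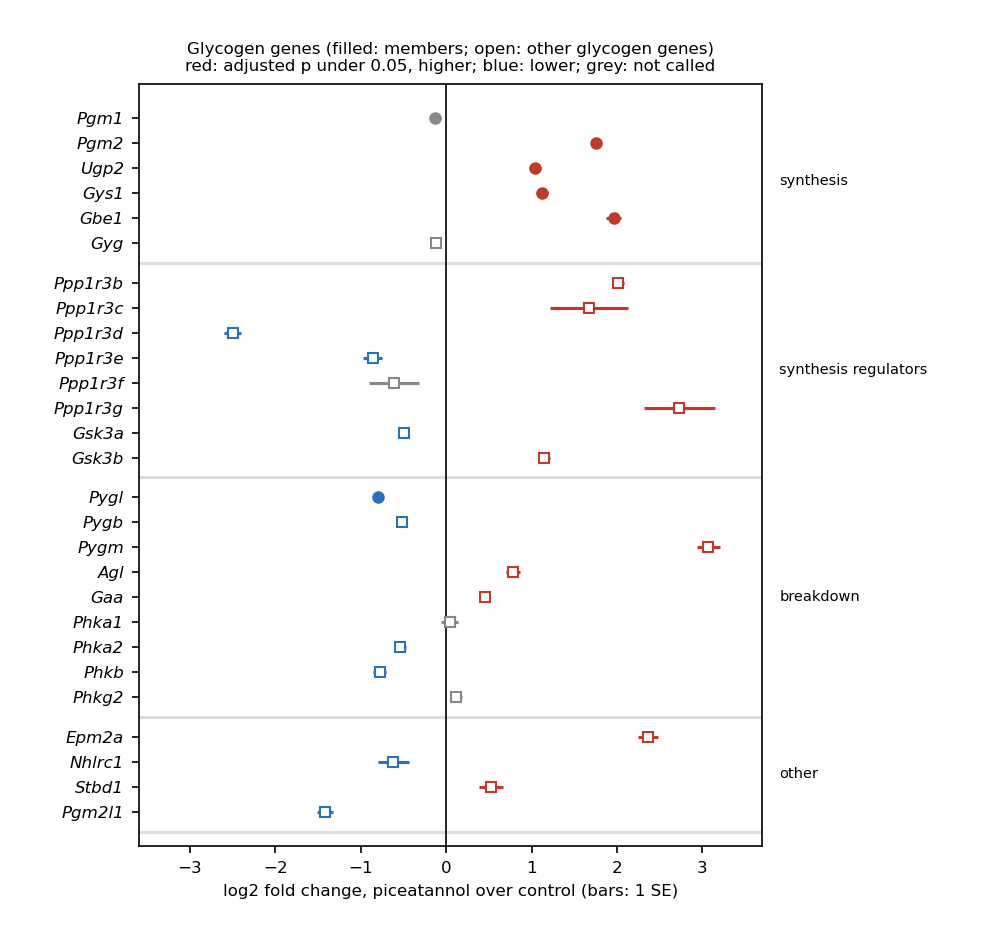
Log2 fold change of piceatannol over control (x axis, bars 1 SE) for the 6 glycogen genes among the 37 (filled circles) and the 21 other tested glycogen genes (open squares), in order of synthesis, its regulators, breakdown and other roles. Pgm2, Ugp2, Gys1 and Gbe1 lie at 1.04 to 1.96, Pygl at -0.80 and Pygm at 3.07, and the regulators lie on both sides of 0.

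Across 10 steps with more than 1 isozyme, the share of a chosen isozyme in the summed FPKM was compared between groups. Genes grouped under a step need not do the same work in the cell. Slc2a6, set beside Slc2a1, is a carrier of the lysosomal membrane. The row Pgm1, set beside Pgm2, is a relative that in humans acts mainly on pentose phosphates. The groups did not overlap for 9 of the 10 shares, where 3 libraries against 3 can give no exact permutation p under 0.1. Those 9 shares each had a two-sided exact permutation p of 0.1 (adjusted p = 0.111 over 10 shares), and the share of Slc16a3 had p = 0.2. None of the shares could thus pass a threshold of 0.05. The differences (piceatannol minus control, in percentage points) were 38.2 for Slc2a1, 27.4 for Pgm2, 25.5 for Pfkfb3, 23.1 for Pdk1, 19.2 for Hk2, 6.39 for Aldoa, 5.0 for Eno1, 1.89 for Slc16a3, 0.438 for Ldha and -12.4 for Pfkp. With shares of CPM, which are not divided by gene length, the difference was 0.19 points for Eno1 and 0.21 points for Ldha, and each of the other 8 moved by less than 1.5 times. The isozyme highest in control rose in 9 of the 10 steps, Pdk3 being the exception. By mean FPKM the highest isozyme differed between groups in 3 steps, with Hk2, Pfkl and Pdk1 highest with piceatannol, against Hk3, Pfkp and Pdk3 in control. These ranks, like the levels of the shares, depend on the gene length used. For the FPKM values it covers all exons of a gene and can far exceed the longest coding transcript. By mean CPM the highest isozyme differed in 2 steps, since Pfkp was highest in both groups, at 605 CPM with piceatannol and 439 CPM in control. Among hexokinases Hk2 was highest by CPM with piceatannol, against Hk1 in control. Among the PDK kinases Pdk1 was highest by CPM with piceatannol, against Pdk3 in control, where the ranges of Pdk3 and Pdk1 overlapped.

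**Figure D4:**
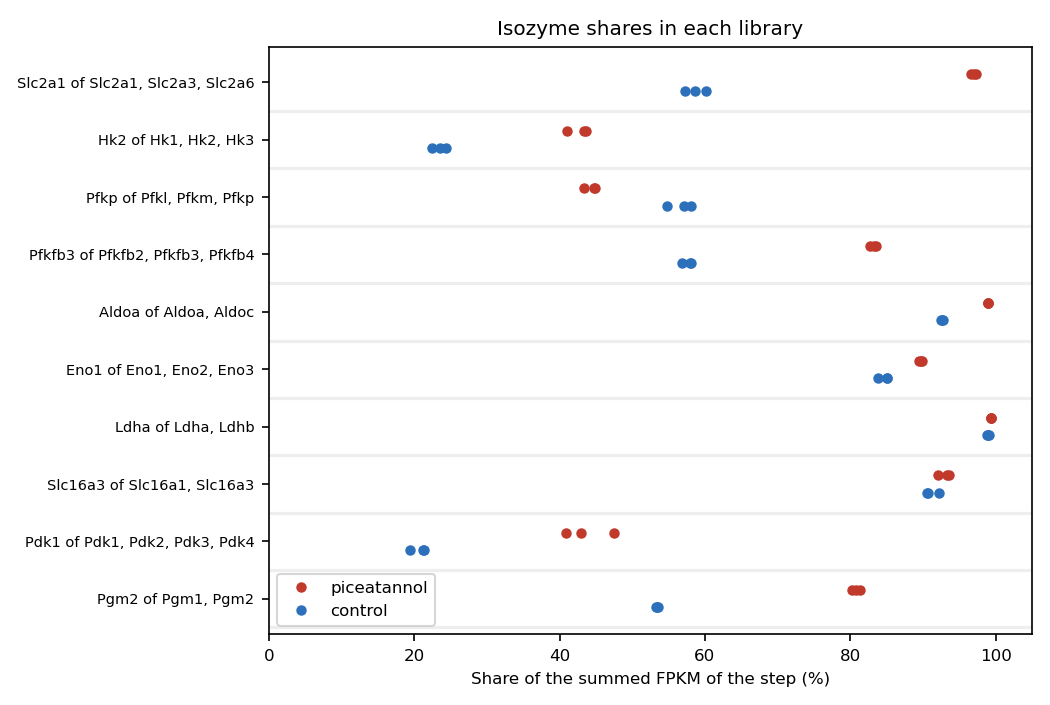
Share of 1 isozyme in the summed FPKM of its step (x axis, percent) in each library, with the 3 piceatannol libraries in red above the 3 control libraries in blue. The widest gap is that of Slc2a1, at 96.9% with piceatannol and 58.7% in control, and the points overlap only for Slc16a3.

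By level per gene length, Aldoa, Pkm and Ldha held the first 3 ranks among the 37 genes in both groups, with Aldoa first, while Pkm ranked 2 with piceatannol and 3 in control. Slc2a1 ranked 4 of 37 with piceatannol and 6 in control, and Hk2 ranked 8 with piceatannol and 21 in control. Ranks depend on the lengths used, which were 3506 bases for Slc2a1 and 2753 for Tpi1, ranked 5 with piceatannol. The longest coding transcripts of Slc2a1 and Tpi1 have 3260 and 1607 bases. For Aldoa the implied length of 3762 bases differed from the 2911 bases in GENCODE M21. The ranks of the 9 genes with near-identical copies, Pkm, Ldha and Gapdh among them, are as uncertain as their levels. Gapdh ranked 21 with piceatannol and 31 in control. Ldha and Pkm overlapped neither with each other in control nor with Aldoa in either group, while with piceatannol Ldha, Pkm and Slc2a1 lay next to each other with overlapping ranges between Ldha and the other two. In counts, Aldoa, Pkm, Ldha, Gpi1 and Slc2a1 together took 58.9% to 59.6% of the counts of the 37 genes with piceatannol and 56.1% to 57.4% in control.

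Genes next to the pathway were counted by the same rule. Of 26 glucose transporters and glycolytic isozymes outside the 37, only 11 were expressed enough to be tested, and 4 rose, 5 fell and 2 were not called (median log2 fold change -0.11). The fructose carrier Slc2a5 rose by 2.60 ± 0.41 (SE, n = 3 each; edgeR adjusted p = 7.59e-06) on the log2 scale but had at most 0.30 FPKM with piceatannol and at most 0.07 FPKM in control. Slc2a8 and the D-lactate dehydrogenase Ldhd rose, at 0.83 and 0.96. Bpgm, which makes bisphosphoglycerate, the monocarboxylate transporter Slc16a7 and the urate carrier Slc2a9 fell, at -1.21, -1.74 and -1.12. Several of these were low, with mean FPKM with piceatannol and in control of 0.687 and 0.36 for Ldhd and 0.127 and 0.413 for Slc16a7. Slc2a9 was at 0.69 and 1.52, and Bpgm at 2.13 and 5.

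Of 10 genes of pyruvate entry into mitochondria 5 were higher and 4 lower (median 0.17). The complex subunits Pdhb and Pdhx rose, with log2 fold changes of 0.76 and 1.01, and Pdha1 and Dlat fell, with -0.72 and -0.76. The phosphatase Pdp1, which reverses the action of the PDK kinases, rose. Pdp1 had 6.68, 6.82 and 6.92 FPKM in the piceatannol libraries, against 3.37, 3.31 and 3.34 FPKM in the control libraries. Its log2 fold change was 1.05 ± 0.08 (SE, n = 3 each; edgeR adjusted p = 9.3e-11). The mitochondrial pyruvate carrier subunit Mpc2 fell, with -0.79. Among 10 genes of gluconeogenesis and related steps 5 were tested, of which 3 rose and 2 fell (median 0.27). The untested genes were Fbp1, Fbp2, Pck1, G6pc and G6pc2 (named after their values were seen), with at most 3 counts in any library. Pyruvate carboxylase Pcx led the tested genes with 1.71, while Slc37a4, the glucose phosphate transporter of the endoplasmic reticulum, and mitochondrial Pck2 were at 0.43 and 0.27. The phosphatases Tigar and G6pc3 fell, at -0.55 and -0.40.

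Of 8 genes of glucose sensing and lactate transporter assembly 7 were tested, of which 5 rose and 2 fell (median 0.60). Bsg encodes basigin, the chaperone that brings MCT1 and MCT4 to the cell surface. Bsg had 433, 425 and 419.9 FPKM in the piceatannol libraries, against 202, 216 and 206 FPKM in the control libraries. It rose, as did Slc16a3 and Slc16a1, by 1.06 ± 0.06 (SE, n = 3 each; edgeR adjusted p = 2.22e-12) on the log2 scale. Emb encodes embigin, a related chaperone. Emb had 35.9, 38.9 and 34.7 FPKM in the piceatannol libraries, against 66.6, 64.5 and 68.2 FPKM in the control libraries. It fell without overlap, with a log2 fold change of -0.84 ± 0.06 (SE, n = 3 each; edgeR adjusted p = 1.09e-10). Txnip restrains glucose uptake and is induced by glucose through the factors MondoA and Mlx. Txnip had 86.5, 90.6 and 78.7 FPKM in the piceatannol libraries, against 195, 179.7 and 199.6 FPKM in the control libraries. It fell below every control library, with -1.14 ± 0.07 (SE, n = 3 each; edgeR adjusted p = 3.44e-12), while its relative Arrdc4 and Mlx rose, at 0.62 and 0.60. Of 12 listed retrocopies of the pathway's genes with symbols of their own, 9 were in the table and 2 tested. Both of these, Eno1b and Aldoart1, rose and were at or under 0.43 FPKM in every library. That list leaves out most of the Gapdh copies described above, which together held between 1362 and 2666 counts in each library.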

How the data were processed

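RNA of 6 samples was sequenced from Illumina TruSeq libraries (1 µg of RNA each), per the labels' protocols. The authors deposited raw counts by gene symbol and, in a second table, FPKM values. The submitters' processing notes name STAR, featureCounts, bcl2fastq and DESeq2 with the builds mm10 and GRCm38, while annotation and strand setting are unstated in the sources used here. Reads of genes overlapping on opposite strands therefore cannot be told apart, which concerns 13 of the 37 genes described, those with exon bases shared with another gene of the table. Pfkm and Pfkfb2 also share 341 and 1262 exon bases with a gene on the same strand, where the strand setting makes no difference. The deposited FPKM values match exon-union lengths of GENCODE M21 within 1% for 32 of these 37 genes.

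Counts were filtered with filterByExpr (minimum count 10), which left 15380 genes with 99.94% to 99.96% of each library's counts, scaled with TMM factors and tested with edgeR 4.0.16 (R 4.3.3; quasi-likelihood, robust, two-sided, Benjamini-Hochberg adjustment over all 15380 genes, threshold 0.05). SEs were taken as the absolute log2 fold change over the root of the F statistic. Isozyme shares of FPKM were compared by exact permutation. Near-identical copies were found with BLAST 2.17.0. Counts were also simulated for 15105 genes, with 67, 67 and 66 genes changed 1.5-fold, 2-fold and 4-fold and all others left unchanged. The test recovered 64.2%, 85.1% and 95.5% of the changed genes, with 9 false calls. In the measured libraries 77% of genes were called, so these rates need not hold for them. The 37 genes and the neighbouring lists were chosen with earlier results of these data known. All 37 may be named, and of each neighbouring list up to 3 genes with the smallest p in each direction. Any other gene of those lists is said to be named after its values were seen.

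No pair of libraries within a group agreed within sampling noise. Libraries with the same replicate number in the labels deviated together from their group means (correlations 0.12, 0.12 and 0.13, against -0.12 to 0.01 for unlike numbers), so the numbers were taken as pairs in the alternative with a replicate block. The other alternatives were RLE and upper-quartile factors, library totals, DESeq2 1.42.0, limma-voom (limma 3.58.1), a filter requiring 5 CPM in 3 libraries, a table left unfiltered, limma with log2(FPKM + 1) or log2(FPKM + 0.1), a threshold of 0.01, and leaving out each library. Leaving out mitochondrially encoded genes and adding copies were chosen after the data were seen. A gene of the marker lists is not reported here.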

Additional observations from a re-analysis of the deposited data

How the results depend on the processing

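All 32 called genes kept their direction and their call under each of the 19 alternatives that could be run for them, Pdk4 (and Ldhb, not called) being removed by the stricter filter. Of the 5 genes not called, 3 changed sign while staying uncalled. Pfkfb4 was at 0.02 and Pdk2 at 0.02 with upper-quartile factors, Pfkfb4 at 0.02, Pdk2 at 0.03 and Pfkfb2 at 0 with the stricter filter, and Pfkfb2 lay between -0.16 and 0.01 with 1 library left out. A call changed only for Pgm1, whose edgeR adjusted p of 0.0755 lay between 0.0269 and 0.285 over the alternatives and which counted as lower with library totals and with both FPKM scales. Higher genes numbered 25 to 26 and lower genes 6 to 7, and leaving out any 1 library left 26 and 6. With the replicate number as a block (paired libraries), 26 were higher and 6 lower and no call changed. With that block 6038 genes of the whole table were higher and 5974 lower. The median log2 fold change of the 37 genes lay between 0.81, with log2(FPKM + 1), and 1.09, with the stricter filter. Isozyme shares have no fit in which a block could enter, and leaving out 1 library changed the direction of none of the 10, from 1.59 to 2.42 points for Slc16a3 and from 37.5 to 39.0 points for Slc2a1. Ldhb and Pdk4 rest on the fewest reads of the 37 genes, and the number of libraries limits every share.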
